A study of Mus musculus with 36 samples.

Results

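Conventional CD4+ T cells (Tconv) recovered from mice with a bone marrow allograft were compared with naive CD4+ T cells by ATAC-seq, in which a transposase inserts adapters into accessible DNA, to ask which elements open and which close on allogeneic activation. The comparison used the wild-type libraries of 2 mouse lines, 12 of the 36 libraries of the series. They were chosen by their labels alone, as 3 naive and 3 Tconv libraries from each line, and a peak was kept where the 2 lines, each tested within itself, were called in the same direction. In this way 15195 of 71509 peaks opened and 8891 closed.

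Wild type means something different in each line. In the HP1α line it was Hp1a+/+ littermates from an intercross of Hp1a+/- mice, whose allele had been excised with CMV-cre, and in the HP1γ line it was littermates homozygous for the Hp1g flox allele that carried no Cd4-cre. Both lines were kept on a mixed 129/Sv and C57BL/6 background. Naive CD4+ T cells (CD44 low) were taken from the spleen by negative selection. Tconv were splenic CD4+ cells sorted for the T cell receptor chain Vβ6, which recognises a superantigen of the donor, several weeks after lethally irradiated hosts, C57BL/6 J or CD45.1+ B6, had received T and NK cell-depleted C57BL/6 J and B6D2F1 bone marrow together with naive CD4+ T cells. No regulatory T cells (Treg) had been given. Naive and Tconv therefore also differed in the Vβ6 sort, in transfer into an irradiated host and in time, and the part of each in a difference cannot be told apart from activation. The lines likewise differed in allele, and the labels do not say whether replicates were separate mice, so p-values measure only the spread between these libraries.

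A naive CD4+ T cell circulates between lymph nodes under homing receptors such as CCR7 and keeps its state through factors such as TCF1, LEF1, SATB1, FOXP1 and BACH2. On recognition of antigen, calcium and kinase signals bring NFAT, AP-1 and NF-kappaB to DNA, BATF and IRF4 act with them, and lineage factors such as T-bet then fix the effector programme, while inhibitory receptors rise on cells that stay stimulated. Such changes are read in chromatin as distal elements that gain or lose accessibility, often while the promoter stays open.

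The elements below were picked because they hold motifs that the later comparison turns on. They are given as the central 150 bases of the peak on the plus strand of GRCm39, a window in which most named elements had no motif to mark. Capitals mark the letters TGANTCA of AP-1, ACCACA of RUNX and AGGTGTGA of T-box factors in opened peaks, and CTTTGAT of TCF and LEF with ACCACA of RUNX in the closed peak, read on either strand (TGTGGT and ATCAAAG are the same motifs on the other strand). The opened elements are the strongest peaks of Bach2 and Tnfrsf9, which hold AP-1 and RUNX together, that of Il10 with AP-1, the Serpinb1b element with RUNX and a T-box match, and the Klrg1 element with RUNX. The Serpinb1b element also holds CTTTGAT, left in lower case. The closed one is a Chl1 element with a TCF and LEF match close to RUNX.
Bach2, opened, chr4:32179886-32180035: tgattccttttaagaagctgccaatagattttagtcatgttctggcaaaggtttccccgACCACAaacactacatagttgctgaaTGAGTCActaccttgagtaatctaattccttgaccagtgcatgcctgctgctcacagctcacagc
Tnfrsf9, opened, chr4:151001926-151002075: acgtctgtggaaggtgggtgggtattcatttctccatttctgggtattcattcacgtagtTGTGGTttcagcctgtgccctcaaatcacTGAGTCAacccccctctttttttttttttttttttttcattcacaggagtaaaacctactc
Il10, opened, chr1:130938401-130938550: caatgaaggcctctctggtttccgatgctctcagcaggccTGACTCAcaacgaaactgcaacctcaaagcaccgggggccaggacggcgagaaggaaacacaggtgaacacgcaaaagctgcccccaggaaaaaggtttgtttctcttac
Serpinb1b, opened, chr13:33255961-33256110: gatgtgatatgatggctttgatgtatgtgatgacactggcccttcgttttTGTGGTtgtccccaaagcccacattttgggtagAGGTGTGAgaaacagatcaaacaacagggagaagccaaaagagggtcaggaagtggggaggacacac
Klrg1, opened, chr6:122247289-122247438: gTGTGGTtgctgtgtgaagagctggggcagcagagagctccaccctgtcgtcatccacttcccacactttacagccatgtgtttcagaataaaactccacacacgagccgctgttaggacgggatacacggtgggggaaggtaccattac
Chl1, closed, chr6:103542051-103542200: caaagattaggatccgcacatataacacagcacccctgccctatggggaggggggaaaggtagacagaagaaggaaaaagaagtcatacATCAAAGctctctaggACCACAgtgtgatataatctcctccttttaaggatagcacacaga

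The 12 libraries were far from equally deep. Reads in peaks ranged from 54256613 to 96806542 in 10 of them, but HP1α-line Tconv replicates 2 and 3 held 19698436 and 6202786. Those 2 also stood apart on the second principal component of log2 CPM (read counts scaled to a common library size), which took 9.7% of the variance against 78% for the first, the component that separated naive from Tconv libraries. The lowest correlation between replicates across peaks was 0.897, between HP1α-line Tconv replicates 1 and 3, and the highest was 0.992. Of the reads in peaks, 58.8% to 63.7% lay in promoter peaks, that is peaks that come within 1 kb of a protein-coding transcription start site (TSS) and can themselves be many kb wide.

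The labelled cell type was checked on promoters. All 15 T cell identity genes on the list had a promoter peak and 0 were called, and the Cd4 promoter peak held 102, 92.2 and 90.5 CPM in naive and 100, 86.2 and 89.2 CPM in Tconv libraries of the HP1α line, and 101, 98.8 and 106 CPM against 113, 107 and 114 CPM in the HP1γ line. Cd4 levels overlapped between naive and Tconv in the HP1α line and lay slightly higher in all Tconv libraries of the HP1γ line, at log2 fold changes of -0.03 and 0.16. The smaller Cd4 peak 9 bp from the TSS was lower in all Tconv libraries of both lines, at -0.69 ± 0.19 (SE) and -0.79 ± 0.22, with edgeR adjusted p = 0.00916 and 0.00935. Neither Cd4 peak passed the fold threshold. Of 10 B cell genes, 7 had no promoter peak, among them Ms4a1 and Cd79a, and 0 of the other 3 were called. Among 12 myeloid genes, 7 had no promoter peak, including Csf1r, Lyz2 and Adgre1, but Cebpa (2.23 and 1.86 on the log2 scale, HP1α then HP1γ line) and Mpo (4.25 and 5.09) opened. Itgam (-1.13 and -0.56), Cd14 (0.03 and 0.24) and Spi1 (-0.2 and 0.08) were not called in both lines. Summed over the measured myeloid promoters, levels ran from 4.07 to 5.06 CPM per kb in naive and from 6.95 to 9.04 in Tconv libraries, a rise carried by Cebpa and Mpo. The Cd8b1 promoter closed, from between 28.3 and 34.5 CPM in naive to between 2.53 and 8.19 in Tconv. Of 6 NK cell genes, Ncr1 and Klrb1c were among 4 without a promoter peak, while Klre1 and Gzma, which activated T cells can also use, opened. Of the erythroid markers, Gata1 closed (-1.49 and -1.99). Over all tested promoter peaks 8.87% opened and 5.44% closed. Counting every assigned peak, 10 of 28 assigned to the B cell genes opened (35.7%), 7 of 28 at the myeloid genes (25.0%) and 13 of 24 at the NK cell genes (54.2%). Of the peaks assigned to any gene 21.0% opened, so the myeloid share was near that of all. The part of other cell types in the results was not tested. Promoter peaks of the HP1 genes, which overlap the neighbouring genes Hnrnpa1 and Hnrnpa2b1, were not called, at -0.42 and 0.12 for Cbx5 (HP1α) and -0.49 and -0.03 for Cbx3 (HP1γ). An intronic Cbx5 peak 2.28 kb from the TSS opened (2.93 and 2.96).

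To find the elements that differ, counts of each line were compared between Tconv and naive with the quasi-likelihood test of edgeR, and a peak was called when its absolute log2 fold change passed 1 at an adjusted p below 0.05. In the HP1α line 17832 of 70350 tested peaks opened (25.3%) and 9471 closed (13.5%). In the HP1γ line 17028 of 70216 opened (24.3%) and 16221 closed (23.1%). Of the 69851 peaks tested in both, 15195 opened in both lines (21.8%) and 8891 closed in both (12.7%), and these are the peaks called opened and closed below. The opened set was 85.2% of the HP1α-line and 89.2% of the HP1γ-line openings. The closed set was 93.9% of the HP1α-line closings but 54.8% of those of the HP1γ line. There, 7329 peaks were called closed in that line only, 92.3% of them lower in the other line too, at a median log2 fold change of -0.71.

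Opened peaks outnumbered closed ones most at large fold changes. Opened peaks had median log2 fold changes of 2.77 and 2.68 in the HP1α and HP1γ lines, and closed peaks of -1.7 and -2.44. Past an absolute log2 fold change of 3 in both lines there were 5249 opened and 386 closed peaks, and past 4 there were 2169 and 33. Many openings began from almost nothing, since 7709 opened peaks (50.7%) lay under 0.5 CPM in all 6 naive libraries, a level that 12.8% of all tested peaks kept to. Fewer closed peaks, 283 (3.18%), lay under 0.5 CPM in all 6 Tconv libraries, against 0.627% of tested peaks. That level was thus rarer in Tconv over all tested peaks as well, so the shares of opened and closed peaks cannot be compared directly. The median opened peak went from a mean of 0.336 CPM in naive to 2.52 in Tconv, and the median closed peak from 6.91 to 1.57, while the median of all peaks was 2.89 and 2.98. Naive and Tconv libraries did not overlap in either line at 14694 opened and 8737 closed peaks, against 26.6% and 24.6% of all tested peaks in the respective direction.

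The balance of opened to closed moved with scaling, although the order did not turn in the set called in both lines. There, openings were 63.1% of the calls (65.3% in the HP1α line, 51.2% in the HP1γ line), 71.0% with library size alone and 52.0% with loess offsets on abundance. Leaving out HP1α-line Tconv replicate 3, the shallowest library, gave 15012 opened and 9923 closed peaks, and leaving out HP1α-line Tconv replicate 2 gave 13981 and 9046. Thinning each library to the shallowest of its own line lowered the counts to 8515 opened and 5695 closed peaks, with 16187 calls in the HP1α line and 32879 in the HP1γ line.

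**Figure D1:**
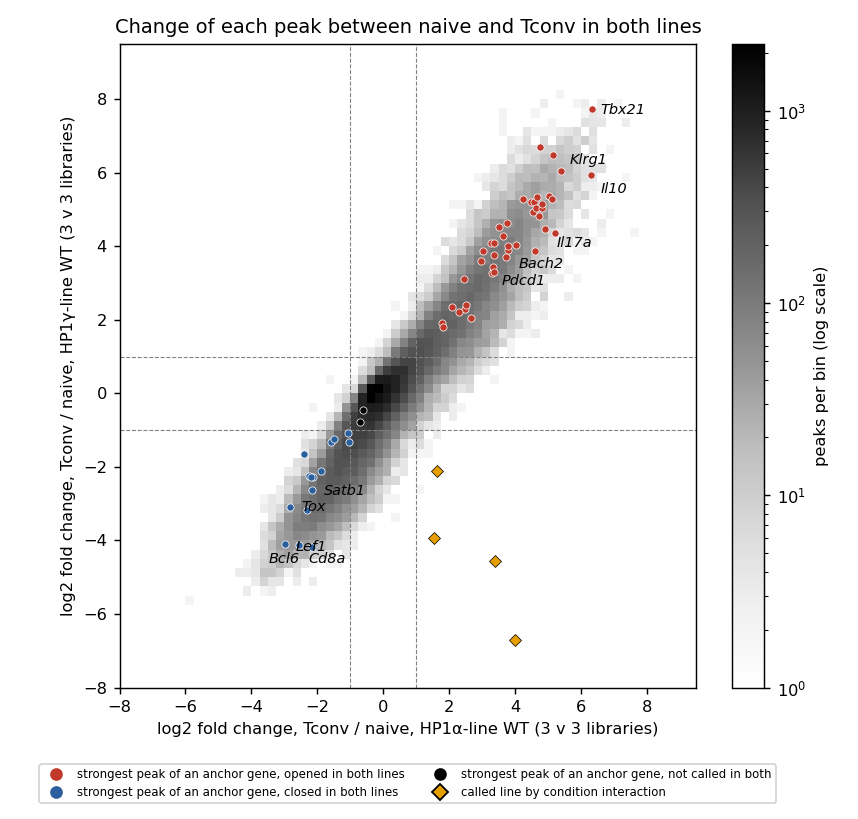
Log2 fold change of Tconv over naive for each of the 69851 peaks tested in both lines, HP1α line on the x axis and HP1γ line on the y axis, with grey shade for the number of peaks in a bin on a log scale. Coloured points are the strongest peak of each anchor gene, most of them in the upper right (opened) or lower left (closed) corner, dashed lines mark an absolute log2 fold change of 1, and orange diamonds are the 4 peaks with a called difference between lines.

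Both lines were also set against each other directly. The interaction of line and condition was called at 4 of 71370 peaks (0.0056%), with 13929 peaks at an unadjusted p under 0.05. DESeq2 called 5 peaks, of which 0 were among the 4, and all 5 differed in the opposite direction to the 4. Only 6 peaks were called in opposite directions. Because the count of 4 changed strongly when a library was left out (up to 9258 without HP1α-line Tconv replicate 1), it does not show that the lines respond alike.

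Most of the change lay away from promoters. Within 1 kb of a protein-coding TSS, 8.87% of 14560 tested peaks opened and 5.44% closed, whereas 26.1% and 15% did in introns, 24.5% and 14.9% between genes and 22.5% and 10.7% in exons. The share closed grew with distance, from 10.3% at 1 to 10 kb, through 14.6% at 10 to 50 kb and 19.1% at 50 to 100 kb, to 23.2% beyond 100 kb. The share opened grew less, from 23.4% over 24.9% and 27.0% to 28.6%. Promoters made up 20.4% of all peaks but 8.5% of opened and 8.91% of closed ones. On the X chromosome 13.0% of 1490 peaks opened and 18.4% closed, against 21.9% and 12.6% on autosomes. Opened peaks covered 13.3 Mb at a median width of 630 bp and closed peaks 8.8 Mb at 810 bp. Their median GC contents were 46.8% and 46.7%, and that of all peaks was 48.0%.

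**Figure D2:**
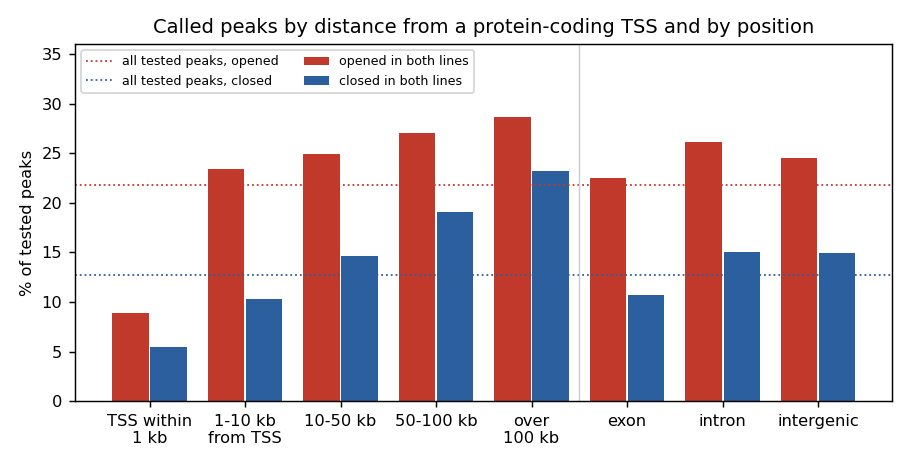
Share of tested peaks that opened (red) or closed (blue) in both lines, in percent, by distance from a protein-coding TSS and by position, with dotted lines for all tested peaks. Promoter peaks stand lowest in both directions, and the share closed rises with distance from 10.3% to 23.2%.

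Openings were ranked by the smaller fold change of the 2 lines. Only peaks without overlap between naive and Tconv, with a mean log2 CPM of at least 3 in the higher group of each line and within 100 kb of a protein-coding TSS entered, at 1 peak a gene, so peaks of lower counts with as large a change are not listed. The first 8 were those of Klrg1, Rbpj, Gas7, Ttc39c, Gzmk, Arnt2, Ptpre and Serpinb1b. Klrg1 is an inhibitory lectin receptor of terminal effector cells. Its element in an exon (chr6:122246945-122247783) held 0.081, 0.0721 and 0.135 CPM in naive and 18.3, 13.1 and 15.2 CPM in Tconv libraries of the HP1α line, and 0.331, 0.026 and 0.117 CPM against 22.3, 22.7 and 24.1 CPM in the HP1γ line. The fold change was 7.3 ± 0.33 (SE, n = 3 against 3) in the HP1α line and 7.27 ± 0.43 in the HP1γ line on the log2 scale (edgeR adjusted p = 4.8e-08 and 1.11e-06). Rbpj encodes the DNA-binding partner of Notch. Its leading element, 72.1 kb upstream (chr5:53550171-53552520), held 0.202, 0.175 and 0.304 CPM in naive and 43.3, 28.5 and 32.2 CPM in Tconv libraries of the HP1α line, and 0.526, 0.0781 and 0.164 CPM against 45.6, 69.6 and 60.2 CPM in the HP1γ line, with log2 fold changes of 7.25 ± 0.3 (SE) and 7.93 ± 0.4. Gzmk, a granzyme of effector memory cells, opened in an intron (chr13:113318961-113320910) by 7.03 ± 0.26 and 7.49 ± 0.24 on the log2 scale. The others were introns of Gas7 (7.11 and 8.58), Ttc39c (7.04 and 8.47), Arnt2 (6.86 and 6.96) and Ptpre (6.74 and 7.5) and the Serpinb1b element printed above, 6.52 kb upstream (chr13:33255281-33256790, 6.68 and 7.55). All 8 were at or under 0.526 CPM in each naive library.

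Among closings ranked under the same limits, the first 4 were segments of the T cell receptor alpha and delta locus, Trdv5 (-5.77 and -5.69), Trdv2-2 (-5.54 and -4.82), Trav21-dv12 (-4.83 and -4.56) and Trav1 (-4.5 and -4.97). They belong to a multigene family with near copies, so counts may be shared between members, and naive cells were not sorted on the receptor. The locus is also rearranged in T cells, which removes DNA between joined segments, so lost DNA copies cannot be told apart from closing. The other 4 were intronic. Chl1, a cell adhesion gene, had an element (chr6:103541521-103542730) that held 26.5, 18.2 and 14.1 CPM in naive and 0.182, 1.95 and 0.94 CPM in Tconv libraries of the HP1α line, and 21.7, 19 and 20.8 CPM against 0.105, 0.433 and 0.403 CPM in the HP1γ line. Its fold change was -4.45 ± 0.61 (SE, n = 3 against 3) in the HP1α line and -6.03 ± 0.33 in the HP1γ line on the log2 scale (edgeR adjusted p = 7.22e-05 and 8.39e-07). Zfp800, a zinc finger gene, lost an intronic element (chr6:28321681-28323410) that fell from between 32 and 40.3 CPM in naive to between 0.623 and 2.95 in Tconv libraries, at log2 fold changes of -4.33 ± 0.4 and -5.38 ± 0.19. Those in Map7 (-4.31 and -4.85) and Akap17b (-4.17 and -4.87) completed the 8.

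Peaks were assigned to the protein-coding gene with the nearest TSS within 100 kb, which is a statement on position and not on control. Of 63742 assigned peaks, 21.0% opened and 11.7% closed, and these are the shares against which gene groups are read. Of 15048 genes with a peak, 5772 had an opened one, 3508 a closed one and 1440 both.

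Genes of the naive state lost elements. Of 601 peaks at 26 genes of the naive state and of lymph node homing, 255 closed (42.4%) and 23 opened (3.83%, or 2.5% with loess offsets on abundance), with median log2 fold changes of -0.92 and -1.65. The closed share lay between 31.9% and 48.1% over the scalings tried and without HP1α-line Tconv replicate 2 or 3. By number, most were lost at Foxp1, a forkhead repressor that keeps T cells quiescent, where 58 of 94 peaks closed over 595 kb, Bach2, a repressor of effector genes, with 42 of 76, and Satb1, a chromatin organiser, with 30 of 48. Lef1 lost 15 of 31 and Foxp1 also its promoter (-1.81 and -2.05).

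The strongest peak of a gene is taken below as the one assigned to it whose larger adjusted p of the 2 lines was smallest. For Lef1, which encodes a partner of beta-catenin, it lay in an intron 78.2 kb from its TSS (chr3:130983791-130985500). The Lef1 element held 33.7, 30.3 and 30.7 CPM in naive and 2.32, 4.53 and 5.91 CPM in Tconv libraries of the HP1α line, and 33.4, 33.2 and 33.4 CPM against 2, 2.15 and 1.54 CPM in the HP1γ line. Its fold change was -2.99 ± 0.29 (SE, n = 3 against 3) in the HP1α line and -4.1 ± 0.14 in the HP1γ line on the log2 scale (edgeR adjusted p = 5.14e-06 and 1.14e-07), whereas the Lef1 promoter was not called (-0.58 and -0.17). Satb1 showed the same division, with an element 46.5 kb upstream (chr17:52185471-52188720) at -2.12 ± 0.2 and -2.27 ± 0.18 and an uncalled promoter at -0.68 and -0.81. Tcf7, the gene of TCF1, closed 26.5 kb upstream (chr11:52199721-52202550, -1.89 and -2.11) but only 2 of its 22 peaks did, and its promoter had -0.58 and -0.11. The strongest peak of Bach2 was its only opened one. This element, 58.8 kb upstream (chr4:32179291-32180630), held 1.32, 1.34 and 1.38 CPM in naive and 22.2, 15.3 and 17.2 CPM in Tconv libraries of the HP1α line, and 2.49, 1.73 and 1.68 CPM against 30.1, 29.3 and 26 CPM in the HP1γ line, and it is the Bach2 sequence printed above. It opened by 3.78 ± 0.23 (SE, n = 3 against 3) in the HP1α line and 3.89 ± 0.17 in the HP1γ line on the log2 scale (edgeR adjusted p = 2.04e-07 and 3.01e-07), while 42 peaks of the same gene closed at medians of -1.99 and -2.86.

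Homing receptors and their regulators both lost and gained elements. At the promoter of Ccr7, the receptor for entry into lymph nodes, a wide peak (chr11:99032431-99047600) held 439, 308 and 309 CPM in naive and 122, 127 and 105 CPM in Tconv libraries of the HP1α line, and 362, 349 and 366 CPM against 137, 123 and 104 CPM in the HP1γ line. All Tconv libraries lay below all naive ones, at -1.56 ± 0.2 (SE, n = 3 against 3) in the HP1α line and -1.54 ± 0.09 in the HP1γ line on the log2 scale (edgeR adjusted p = 4.45e-05 and 1.01e-06). Ccr7 lost 9 of 19 peaks, and S1pr1, the receptor for exit from lymph nodes, lost 6 of 28 with an uncalled promoter (-0.58 and -0.37). S1pr1 also gained 2 peaks, 1 of them its strongest, 74.1 kb upstream (1.79 and 1.9). Klf2, an activator of S1pr1, had 0 closed and 1 opened peak of 11, the opened one 51.2 kb downstream in an intron of Eps15l1 (3.31 and 3.28), and Id3 had 0 of 10 called. Among surface genes, Dapl1 (9 of 13), Nsg2 (9 of 12) and Atp1b1 (9 of 11) closed most widely. Il7r, the survival receptor of resting cells, closed 45.3 kb upstream (-1.59 and -1.32) with 3 of 20 peaks, and Il6ra closed at its promoter, near the threshold (-1.07 and -1.09).

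**Figure D3:**
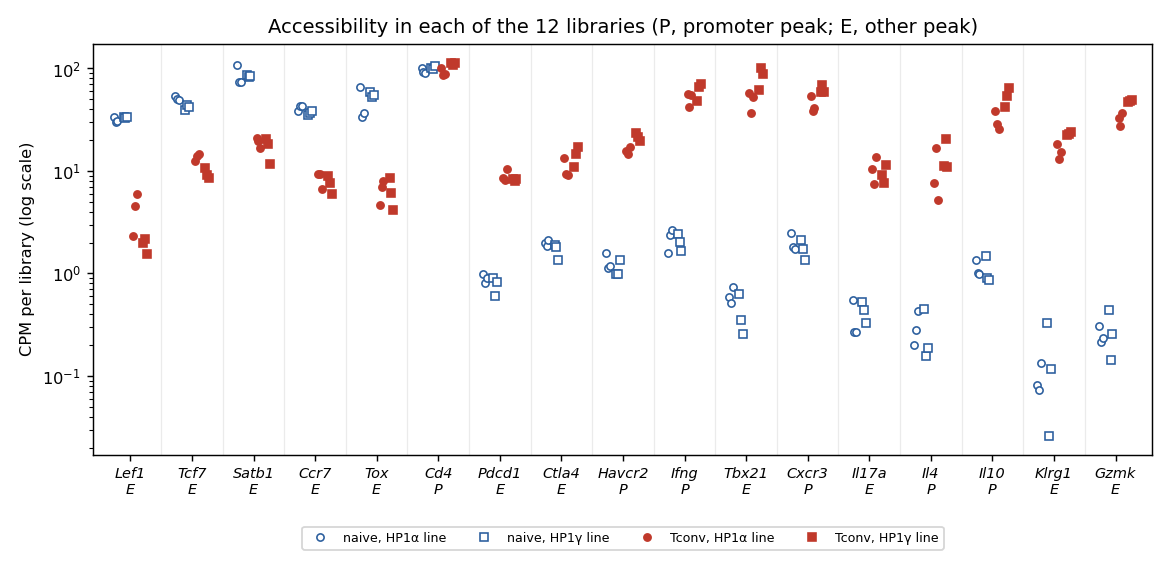
CPM of each of the 12 libraries on a log scale for 1 peak of each of 17 genes, naive open and Tconv filled, circles for the HP1α and squares for the HP1γ line. Lef1 to Tox lie lower in all Tconv libraries, Cd4 lies between 86.2 and 114 CPM, and Pdcd1 to Gzmk lie higher in all Tconv libraries.

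Elements of factors that act downstream of the T cell receptor opened. Among 188 peaks at the AP-1, BATF and IRF genes, 83 opened (44.1%) and 10 closed (5.32%), and among 212 at NFAT, NR4A, EGR and NF-kappaB genes 74 (34.9%) and 9 (4.25%). Closed peaks numbered 6 on the former list with library size alone and 15 on the latter with loess offsets on abundance. Batf, which pairs with Jun proteins, opened at 13 of 17 peaks. Its intronic element (chr12:85742511-85744100) held 0.546, 0.598 and 0.564 CPM in naive and 7.99, 7.71 and 6.71 CPM in Tconv libraries of the HP1α line, and 0.526, 0.352 and 0.611 CPM against 5.63, 5.94 and 7.76 CPM in the HP1γ line, with log2 fold changes of 3.73 ± 0.27 and 3.72 ± 0.24. Maf, an activator of Il10 and Il21, opened at 11 of 12 peaks, led by an element 19.1 kb upstream (4.72 and 4.81). Irf4 had 12 opened and 3 closed of 27 peaks and Irf8 9 and 2 of 16, where the leading Irf8 change was a closed exonic peak (-2.2 and -2.28). Nfatc1 opened at 12 of 28, Nfatc2 at 13 of 20 and Nfkb1, the p50 subunit, at 22 of 40. The early gene Fos had 1 opened and 2 closed of 15. Nr4a1, an immediate response gene of the receptor, had 1 opened and 1 closed peak of 12. Its closed element 3.36 kb upstream (chr15:101147951-101149280) held 29.6, 23.7 and 24.2 CPM in naive and 3.06, 6.35 and 6.85 CPM in Tconv libraries of the HP1α line, and 28.4, 28.7 and 27.8 CPM against 2.06, 3.27 and 3.94 CPM in the HP1γ line, which was -2.31 ± 0.29 (SE, n = 3 against 3) in the HP1α line and -3.17 ± 0.21 in the HP1γ line on the log2 scale (edgeR adjusted p = 3.2e-05 and 2.14e-06).

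Promoters of these factors were mostly open already. Batf (0.13 and 0.41), Irf4 (-0.02 and 0.22), Irf8 (-0.39 and 0.15), Maf (0.59 and 0.78), Nr4a1 (-0.28 and 0.27) and Nfatc1 (0.16 and 0.57) had no called promoter peak. Over the 59 anchor genes described here, 58 had a promoter peak, of which 18 opened and 4 closed, and 34 had an uncalled promoter with another peak that opened or closed.

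Peaks opened in the Th1, Th2 and Th17 programmes, and the difference between these lists was not tested. In the Th1 programme 121 of 219 peaks opened (55.3%) and 10 closed (4.57%), in the Th2 programme 52 of 91 (57.1%) and 2 (2.2%), and in the Th17 programme 72 of 115 (62.6%) and 2 (1.74%). Their median log2 fold changes were 1.48 and 1.7, 1.82 and 2.1, and 2.78 and 2.04, against 0.0 and 0.01 over all assigned peaks. With loess offsets on abundance the Th17 medians were 1.58 and 1.48, and 50.4% of its peaks opened. A population of cells cannot show whether single cells carry several programmes, and in a bulk sample more cells of a type and more accessible copies per cell cannot be told apart.

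Tbx21, the gene of T-bet, opened from under 1 CPM. Its intronic element (chr11:96993811-96996070) held 0.587, 0.515 and 0.744 CPM in naive and 58.2, 36.8 and 52.5 CPM in Tconv libraries of the HP1α line, and 0.631, 0.352 and 0.258 CPM against 61.2, 102 and 89.3 CPM in the HP1γ line. Tconv stood apart from naive libraries in both lines, at 6.33 ± 0.27 (SE, n = 3 against 3) in the HP1α line and 7.73 ± 0.3 in the HP1γ line on the log2 scale (edgeR adjusted p = 4.8e-08 and 1.78e-07). The promoter opened too (2.72 ± 0.2 and 3.3 ± 0.17), as did 8 of 9 peaks. Ifng, the signature Th1 cytokine, opened at 16 of 18 peaks, and its promoter (chr10:118276051-118279970) held 1.58, 2.35 and 2.64 CPM in naive and 56.5, 42.2 and 54.8 CPM in Tconv libraries of the HP1α line, and 2.42, 2.03 and 1.67 CPM against 47.9, 65.3 and 70.1 CPM in the HP1γ line. That corresponded to 4.54 ± 0.24 (SE, n = 3 against 3) in the HP1α line and 4.94 ± 0.19 in the HP1γ line on the log2 scale (edgeR adjusted p = 8.26e-08 and 1.72e-07). Cxcr3, a T-bet target and receptor for inflamed tissue, opened at 7 of 7 peaks, with its promoter (chrX:100777011-100782050) at 4.5 ± 0.23 and 5.2 ± 0.16. Bhlhe40 opened at 20 of 23 peaks, Runx3 at 20 of 36 and Il18rap at 8 of 9. Eomes, the related T-box factor, went the other way, with 2 opened and 5 closed of 14 peaks and a distal element (chr9:118218511-118220200) at -2.41 ± 0.29 and -1.65 ± 0.12.

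Th2 loci opened at the cytokine genes more than at their regulator's promoter. Il4 opened at 4 of 4 peaks, Il13 at 7 of 7, Il5 at 3 of 6 and Il1rl1, the receptor for IL-33, at 17 of 19. Il4 promoter levels (chr11:53507431-53509830) were 0.202, 0.278 and 0.428 CPM in naive and 7.7, 16.9 and 5.24 CPM in Tconv libraries of the HP1α line, and 0.451, 0.156 and 0.188 CPM against 11.1, 20.6 and 11 CPM in the HP1γ line. The libraries did not overlap and the fold change was 5.03 ± 0.46 (SE, n = 3 against 3) in the HP1α line and 5.81 ± 0.42 in the HP1γ line on the log2 scale (edgeR adjusted p = 3.05e-06 and 3.48e-06). Gata3, the Th2 factor that all T cells need, opened at 8 of 15 peaks, with an element 29.9 kb downstream at 4.67 and 5.34, and its promoter was not called (-0.36 and 0.08).

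Of the Th17 cytokine genes, Il17a opened at 5 of 5 peaks, Il17f at 4 of 4 and Il22 at 1 of 2. The Il17a element 9.7 kb downstream (chr1:20810481-20811180) held 0.546, 0.268 and 0.271 CPM in naive and 10.5, 7.41 and 13.8 CPM in Tconv libraries of the HP1α line, and 0.526, 0.443 and 0.329 CPM against 9.1, 7.58 and 11.4 CPM in the HP1γ line, which was 4.92 ± 0.37 (SE, n = 3 against 3) in the HP1α line and 4.47 ± 0.24 in the HP1γ line on the log2 scale (edgeR adjusted p = 7.17e-07 and 6.64e-07). Rora opened at 11 of 13 peaks, Il1r1 at 14 of 16, Ahr at 9 of 11 and Csf2, the gene of GM-CSF, at 13 of 18. Il21r had 0 of 17 called.

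Of the 85 peaks of follicular helper genes, 33 opened (38.8%) and 11 closed (12.9%), against 21.0% and 11.7% of all assigned peaks. Il21, the cytokine that helps B cells, opened at 9 of 18 peaks, with its promoter at 3.59 ± 0.27 and 2.87 ± 0.18 and an element 25.3 kb upstream (chr3:37311151-37312940) that held 1.05, 0.577 and 0.62 CPM in naive and 32.7, 18.8 and 18.5 CPM in Tconv libraries of the HP1α line, and 0.962, 1.08 and 0.799 CPM against 30, 39.1 and 45.5 CPM in the HP1γ line. Il21 Tconv libraries all lay above naive ones. Bcl6, the follicular factor, had 0 opened and 3 closed of 8 peaks, with a distal element at -2.16 ± 0.49 and -4.17 ± 0.29 and an uncalled promoter at -0.14 and -0.05. Cxcr5, the receptor that draws cells into follicles, had 2 opened and 1 closed of 15 peaks. The closed one, its strongest, was intronic (-1.5 and -1.23), and its promoter was not called (1.0 and 0.36). Il2, expressed on first activation, opened at its promoter (2.27 ± 0.23 and 2.6 ± 0.12).

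Elements of cytotoxic and effector genes opened widely. Of 207 peaks, 132 opened (63.8%) and 10 closed (4.83%), at medians of 2.39 and 2.58, and with loess offsets on abundance the opened share was 55.1%, its lowest, and the medians 1.43 and 2.36. Every peak assigned to Klrg1 (12), Gzmk (10), Ccl5 (8), Ccl3 (6) and Gzma (6) opened. At the Gzmb promoter, the start of granzyme B (chr14:56499061-56500450), libraries held 1.03, 1.49 and 1.41 CPM in naive and 16.6, 14.4 and 8.59 CPM in Tconv libraries of the HP1α line, and 1.8, 2.14 and 1.25 CPM against 27, 28.1 and 30.8 CPM in the HP1γ line. This was 3.35 ± 0.29 (SE, n = 3 against 3) in the HP1α line and 4.08 ± 0.19 in the HP1γ line on the log2 scale (edgeR adjusted p = 1.94e-06 and 3.99e-07). Ccl5, a chemokine that recruits T cells, opened at its promoter by 5.12 ± 0.24 and 5.28 ± 0.15, and Nkg7, a granule protein, by 4.25 ± 0.21 and 5.29 ± 0.22. Of their regulators, Prdm1, the gene of BLIMP-1, opened at 15 of 25 peaks, led by one 88.5 kb away (5.21 and 4.37), Zeb2 at 15 of 22 and Id2 at 7 of 10, while none of the promoters of these 3 genes was called. Prf1, the gene of perforin, was an exception with 2 opened and 4 closed of 7 peaks.

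**Figure D4:**
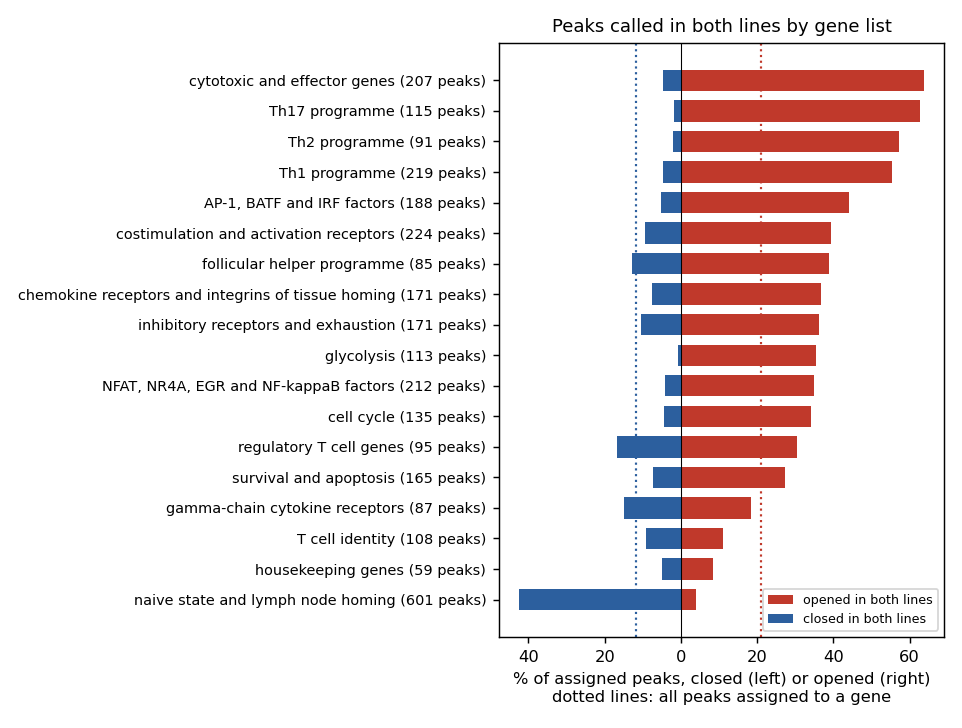
Percent of the peaks assigned to each gene list that opened (red, to the right) or closed (blue, to the left) in both lines, with the number of peaks in brackets and dotted lines for all 63742 assigned peaks. The Th1, Th2, Th17 and cytotoxic lists reach 55.3% to 63.8% opened, and of the lists plotted the naive state list alone had more closed than opened peaks, at 42.4%. Markers of other cell types are not plotted.

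Peaks opened at receptors that raise and at receptors that restrain activation. Of 224 peaks at costimulation and activation receptors 88 opened (39.3%) and 21 closed (9.38%), and of 171 at inhibitory receptors and exhaustion genes 62 (36.3%) and 18 (10.5%). The closed shares depended on the scaling. With library size alone 5.8% of the costimulation peaks closed, and with loess offsets on abundance 30 of the 171 inhibitory receptor peaks did, a share above the 14.3% of all assigned peaks. Tnfrsf9, the gene of 4-1BB, opened at its promoter (1.55 ± 0.16 and 1.98 ± 0.06) and in the intronic element printed above (chr4:151001391-151002610), which held 0.708, 0.69 and 0.902 CPM in naive and 7, 7.62 and 7.52 CPM in Tconv libraries of the HP1α line, and 0.706, 0.742 and 0.646 CPM against 10.4, 12.4 and 11.9 CPM in the HP1γ line. Cd44, the memory marker, opened at 15 of 24 peaks, and at its distal element (chr2:102786411-102788320) by 4.04 ± 0.33 and 4.04 ± 0.25. Icos opened at 12 of 27, Itgb1 at 15 of 17 and Il2ra at 5 of 12, without a called promoter at Icos (-0.26 and -0.18) or Il2ra (0.13 and 0.6).

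Pdcd1, the gene of PD-1, opened at 5 of 9 peaks. Its element 10.1 kb downstream of the TSS, in an intron (chr1:93969401-93971080) held 0.992, 0.814 and 0.902 CPM in naive and 8.54, 8.09 and 10.5 CPM in Tconv libraries of the HP1α line, and 0.902, 0.599 and 0.822 CPM against 8.41, 7.98 and 8.36 CPM in the HP1γ line. That was 3.33 ± 0.26 (SE, n = 3 against 3) in the HP1α line and 3.44 ± 0.18 in the HP1γ line on the log2 scale (edgeR adjusted p = 8.76e-07 and 6.33e-07), and its promoter came close to the threshold (0.95 and 1.08). Havcr2, the gene of TIM-3, opened at 7 of 8 peaks and at its promoter (chr11:46343871-46346370), where libraries held 1.58, 1.12 and 1.17 CPM in naive and 15.5, 14.7 and 17.1 CPM in Tconv libraries of the HP1α line, and 0.992, 0.99 and 1.36 CPM against 23.5, 21.6 and 19.4 CPM in the HP1γ line. Lag3 opened at 3 of 3, Tigit at 8 of 14, Entpd1, the ectonucleotidase CD39, at 9 of 15 and Ctla4 at 9 of 20, with a Ctla4 element 33.7 kb upstream at 2.45 ± 0.25 and 3.1 ± 0.21. Tox, the factor of exhausted cells, did not follow them. It had 0 opened and 10 closed of 31 peaks, its promoter closed (-1.43 ± 0.2 and -1.27 ± 0.05), and an intronic element (chr4:6975231-6976980) held 66, 33.3 and 36.4 CPM in naive and 4.7, 6.99 and 8.06 CPM in Tconv libraries of the HP1α line, and 58.7, 53.2 and 54.7 CPM against 8.57, 6.16 and 4.15 CPM in the HP1γ line. All 6 Tconv libraries lay below all 6 naive libraries at this Tox element. Tox2, by contrast, opened at 6 of 14 peaks with 0 closed.

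Among genes known from Treg, Il10, an inhibitory cytokine, changed widely. It opened at 14 of 15 peaks. Its promoter (chr1:130946421-130951250) held 1.34, 1.01 and 0.981 CPM in naive and 38.5, 28.9 and 25.6 CPM in Tconv libraries of the HP1α line, and 1.49, 0.899 and 0.869 CPM against 42.5, 53.7 and 63.8 CPM in the HP1γ line, and this was 4.84 ± 0.25 (SE, n = 3 against 3) in the HP1α line and 5.66 ± 0.24 in the HP1γ line on the log2 scale (edgeR adjusted p = 7.3e-08 and 2.32e-07). The Il10 element printed above, 9.11 kb upstream (chr1:130937811-130939140), opened by 6.31 ± 0.32 and 5.93 ± 0.23. Ebi3 (3.72 and 3.43) and Itgae (3.21 and 3.91) opened at their promoters and Gpr83 closed (-1.75 and -2.12). Foxp3, the Treg factor, did not open. The wide peak at its first TSS, shared with Ppp1r3f, was not called (-0.73 and -0.06), and the peak at its other TSS (chrX:7452521-7453560) closed near the threshold, at -1.05 ± 0.36 and -1.31 ± 0.15. Over the Treg list 29 of 95 peaks opened (30.5%) and 16 closed (16.8%). Scaled by library size alone, 7.37% closed, against 8.39% of all assigned peaks.

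Tissue homing receptors and integrins opened at 63 of 171 peaks (36.8%) and closed at 13 (7.6%, or 4.09% when scaled by library size alone). Besides Cxcr3, Itga1, an integrin of tissue-resident cells, opened at 6 of 6 peaks, Gpr15 at 5 of 6, Ccr6 at 5 of 7 and Cxcr6 at 4 of 8. The Cxcr6 element 11.9 kb downstream (chr9:123646831-123648120) rose from between 0.156 and 0.665 CPM in naive to between 8.03 and 12.7 in Tconv libraries. Ccr9, a gut homing receptor, had 0 opened of 12. The common gamma-chain receptors had 16 of 87 peaks opened (18.4%) and 13 closed (14.9%, or 11.5% when scaled by library size alone), both near the shares of all assigned peaks, 21.0% and 11.7%. Among them Il2rb opened at 6 of 7 and Il9r closed at 7 of 17.

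For glycolysis genes 40 peaks opened (35.4%) and 1 closed (0.885%) of 113, against 21.0% and 11.7% of all assigned peaks, with Hif1a (14 of 21) and Pfkp (8 of 14) holding more than any other gene on the list. For the cell cycle the counts were 46 (34.1%) and 6 (4.44%) of 135, and of the 46 Cdk6 gave 16 and Cdkn2a, a cell cycle inhibitor, 6. Survival genes had 45 (27.3%) and 12 (7.27%) of 165, and Pmaip1, the gene of NOXA, gave 15 of the 45. The closed counts of these 3 lists moved with the scaling, from 1 to 4, from 2 to 8 and from 8 to 18. Housekeeping genes had 5 opened (8.47%) and 3 closed (5.08%) of 59, and 0 of their 14 promoter peaks was called, at median log2 fold changes of -0.32 and 0.13.

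Counts of opened and closed peaks were also compared gene by gene. Rbpj held more opened peaks than any other gene, with 37 of 42 over 252 kb at medians of 4.8 and 5.33, although its promoter was not called (0.05 and 0.51). Trerf1 (32 of 34), Itpr1, a calcium channel (29 of 44), Gas7 (26 of 26) and Prex1 (26 of 49) came next, followed by Runx2 (23 of 28), a RUNX factor whose promoter opened (1.13 and 1.54), Chsy1 (22 of 25), Ptpn13 (22 of 27), Arhgap26 (22 of 37) and Nfkb1. Gas7 was the one gene of these whose promoter opened strongly (4.27 and 6.16). On the closed side, after Foxp1, Bach2 and Satb1, came Tgfbr3, a co-receptor of TGF-beta (29 of 47, promoter -1.02 and -1.53), Rere (21 of 42), Sgms1 (21 of 51), Mtss1 (17 of 25), Trio (17 of 35), Pip4k2a (16 of 48) and Pakap (15 of 23). Longer loci hold more peaks, and length was not taken into account in these counts.

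Sequence motifs separated the 2 sets. Matches were counted on both strands in the central 300 bases of peaks more than 1 kb from a TSS, as a description of letters and not of binding. AP-1 (TGANTCA) occurred in 23.5% of opened and 8.95% of closed peaks, against 14.4% of all 55192 distal peaks. T-box (AGGTGTGA) occurred in 3.87%, 1.17% and 2.18%, NF-kappaB (GGGACTTTC) in 1.23%, 0.42% and 0.685%, and RUNX (ACCACA) in 41.3%, 32.3% and 33.7%. The reverse held for TCF and LEF (CTTTGAT), at 5.04% of opened, 11% of closed and 6.55% of all peaks, and for the ETS core (CAGGAAG), at 21.0%, 30.6% and 23.1%. NFAT (TGGAAAA) differed less, at 8.24%, 6.47% and 7.06%, as did IRF (GAAANNGAA, 12%, 12.8% and 11.7%) and STAT (TTCNNNGAA, 9.82%, 10.1% and 9.47%). CTCF (AGGGGGCGC), the factor of loop anchors, was scarce in both sets, at 0.26% and 0.259% against 1.04%. Related factors share such letters, so a match does not name the factor.

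Read from the motif, 40.9% of 7936 distal peaks with an AP-1 match opened and 9.12% closed, against 25.1% and 14.7% of all distal peaks. The share opened was 22.4% with 0 AP-1 matches, 38.9% with 1, 55.5% with 2 (775 peaks) and 69.1% with 3 or more (97 peaks). Of 3615 peaks with a TCF and LEF match 19.3% opened and 24.7% closed, and of the 569 with both AP-1 and TCF and LEF 33.2% and 15.1%. Of 574 peaks with a CTCF match 6.27% opened and 3.66% closed, the lowest shares among the 20 motifs counted.

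**Figure D5:**
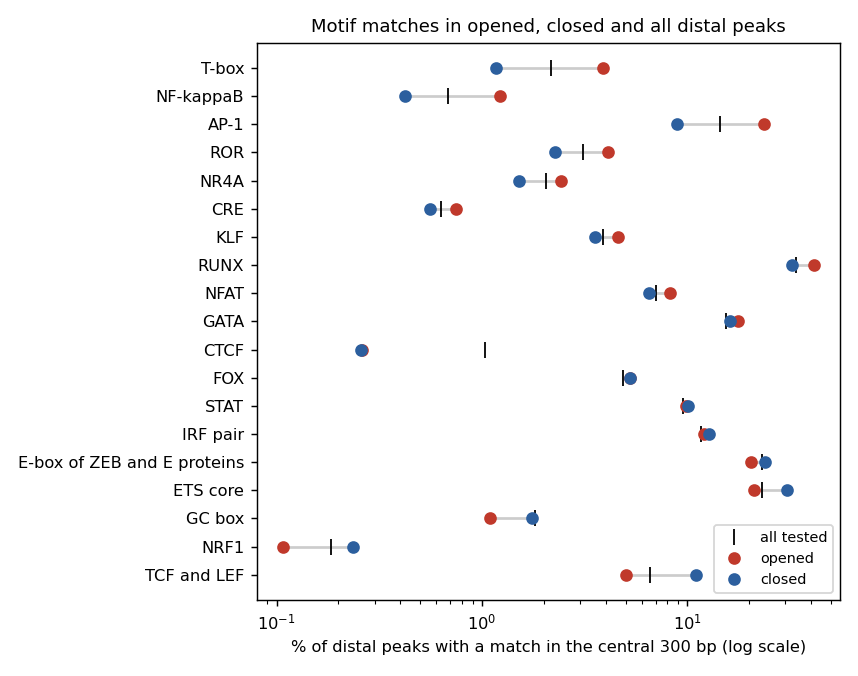
Percent of distal peaks with a match to each motif in the central 300 bases, on a log axis, for opened (red), closed (blue) and all tested (black tick) peaks, ordered by the ratio of opened to closed. T-box, NF-kappaB and AP-1 lie at the opened end and TCF and LEF at the closed end, while STAT and FOX nearly coincide.

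The knockout cells of the same 2 lines, which share no library with the wild-type ones, gave a separate look at the same peaks. In HP1α knockout cells 23.2% of 70515 tested peaks opened and 16.9% closed between naive and Tconv, and in HP1γ knockout cells 21.2% of 70527 opened and 20.7% closed. Of the 15195 peaks opened in wild type, 14075 were also called opened in HP1α knockout cells (92.6% of the wild-type and 86.0% of the knockout list) and 12645 in HP1γ knockout cells (83.2% and 84.5%). Of the 8891 closed peaks, 8299 (93.3% and 69.6%) and 8406 (94.5% and 57.6%) were called closed, and 0 peaks of either set were called in the opposite direction. Median log2 fold changes of the opened peaks were 2.49 and 2.08 in HP1α and HP1γ knockout cells, and those of the closed peaks -1.86 and -2.1. Differences between genotypes were not tested here.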

How the data were processed

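ATAC-seq was measured in spleen CD4 T cells, and 12 wild-type libraries were used (3 naive and 3 Tconv in each of 2 lines). Per the study's methods, the authors trimmed reads with Trim Galore (version 0.6.7), aligned them to GRCm39 with BWA-MEM2, removed duplicates, called peaks with HMMRATAC in each sample, merged them, and counted reads with featureCounts (version 2.0.3). The deposited values are raw counts per consensus peak, and a read may be counted in neighbouring peaks. Of 71512 intervals, 3 had no width and were left out.

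Counts were filtered with filterByExpr, scaled by TMM and tested by quasi-likelihood in edgeR (version 4.0.16, R 4.3.3), 3 against 3 within each line, with Benjamini-Hochberg adjustment over all tested peaks. The biological coefficient of variation was 26.5% in the HP1α line and 16.6% in the HP1γ line. On simulated counts 98.5% and 100% of 200 peaks changed by a log2 fold change of 2 were recovered in the HP1α and HP1γ comparisons. Of the unchanged peaks 13 and 1 were called. The changed peaks were drawn only from well-counted ones and all peaks had the same simulated dispersion, so the recovery does not cover peaks of low counts. CPM are on TMM-scaled library sizes. Annotation and sequence were GENCODE M39 and GRCm39, which all 37 contigs of the files fitted.

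Named peaks were the promoter peak (within 1 kb of the TSS) and the strongest peak of 59 anchor genes, the 8 strongest peaks and 10 genes with most calls per direction, and up to 4 peaks per direction that differed between lines. The members, gene lists and rules were chosen with earlier results of these data known. Alternatives were other scalings, filters and DESeq2 1.42.0, thinning, and leaving out each library. Some genes of the lists are counted in them but not reported singly here.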

Additional observations from a re-analysis of the deposited data

Results flagged for a closer look

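The difference between lines (HP1γ minus HP1α line log2 fold change, edgeR interaction) passed the threshold at 4 peaks. An intergenic peak 1220 kb from Ndufa4 (chr6:10690501-10691100) differed by -10.81 (adjusted p = 0.00291), with fold changes of 4.0 and -6.7. Its levels were 0.081, 0.0103 and 0.0789 CPM in naive and 1.09, 1.06 and 0.269 in Tconv libraries of the HP1α line, and 5.61, 2.14 and 1.95 against 0, 0.0865 and 0 in the HP1γ line. A neighbouring Ndufa4 peak (chr6:10689331-10689730) differed by -8.0 (adjusted p = 0.0124, 3.4 and -4.57).

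A Depdc5 intron peak (chr5:33107731-33108510) differed by -5.24 (adjusted p = 0.0124). It stood at 8.3, 8.35 and 8.13 CPM in HP1γ-line naive libraries but at 0.283, 0.443 and 0.248 in those of the HP1α line, so the naive libraries of the lines stood apart there. A Zfp950 intron peak (chr19:61098271-61098830) differed by -3.73 (adjusted p = 0.0388, 1.62 and -2.1). Line cannot be told apart from allele, and DESeq2 gave none of the 4 an adjusted p.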

How the results depend on the processing

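Of 4778 recomputed values for named peaks, 4692 kept their direction and side of the threshold, 48 lost a call, 36 gained one and 2 reversed, both with loess offsets on abundance and in the HP1α line (Zfp950 at -0.13 and Npvf at 0). Without each library in turn, the HP1α line had 24539 to 27917 called peaks, the HP1γ line 32454 to 34538 and both lines 21976 to 24935 (13981 to 15363 opened, 7333 to 9923 closed). Thinning to the shallowest library of each fit, so that depth was equal within a line but not between lines, gave 16187 calls in the HP1α line, 32879 in the HP1γ line and 14210 in both, 8515 opened and 5695 closed.

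The count of differences between lines was unstable. It was 7 with library size, 31 with loess offsets on abundance, 10182 with voom quality weights, 14 with log2 depth as a covariate, 35 after thinning, and between 1 and 9258 without 1 library (9258 without HP1α WT Tconv replicate 1, 408 without HP1γ WT Tconv replicate 1, 52 without HP1α WT naive replicate 1). The cause was not tested.

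With the replicate number as a block, 23398 peaks were called in both lines and 0 differed between lines, or 335 with GC offsets added to the block. Same-numbered libraries did not deviate together (correlations of -0.12 to 0.045), so the numbers do not pair them. Library size moved the median of all peaks in the HP1α line by 0.22 on the log2 scale. Depth limits HP1α-line Tconv replicates 2 and 3.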

Other observations

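Over all 14560 promoter peaks 8.87% opened and 5.44% closed. Of 49 T cell receptor Trav segments with a promoter peak 0 opened and 28 closed, at median log2 fold changes of -1.63 and -1.46, and the 4 Trdv peaks all closed, at -5.65 and -5.25. In contrast, the 7 distinct Traj peaks held 0 calls. Among 17 distinct Trbv peaks 5 opened (Trbv1, Trbv4, Trbv15, Trbv17 and Trbv19) and 2 closed (Trbv21 and Trbv29). Both closed peaks lie between Trbv19 and Trbd1, and none of the opened ones does. Trbv19 encodes Vβ6, on which Tconv were sorted, and opened by 1.15 and 1.37, the least of the 5. Trbv17, on which they were not sorted, opened by 3.5 and 4.42, so the Trbv19 change does not check the label. Segments are near copies, and reads may be shared among them. Rearrangement of a receptor locus also removes DNA between joined segments, so copies of DNA and accessibility cannot be told apart in these counts.

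Some genes gained and lost elements at once. Peaks of both kinds, at least 3 each, were found at 133 genes. Sgms1 had 8 opened and 21 closed peaks, Akap13 15 and 8, Inpp4b 14 and 5, and St6gal1, a sialyltransferase, 4 and 14.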
